A study of Mus musculus with 6 samples.

Results

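The RNA polymerase I transcription machinery was followed in GC-2spd cells through 10 genes, of 43412 annotated genes in the transcriptome tables. Of these, 5 encode subunits of the polymerase (Polr1a, Polr1b, Polr1c, Polr1d and Polr1e) and 5 encode initiation factors (Rrn3, Ubtf, Taf1a, Taf1b and Taf1c). They were listed by the roles of their proteins, with earlier results of these data known, and all 10 passed the filter of a mean of at least 1 TPM (a level corrected for gene length and given as a share of all transcripts in a library).

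GC-2spd is an immortalized mouse line labelled as testis, on a C57BL/6J background, grown in DMEM with fetal bovine serum and antibiotics. The compared groups were 3 libraries from cells kept in a hypoxia workstation at 1% O2 and 3 libraries from cells kept at 21% O2 (normoxia), both with 5% CO2. RNA was selected for poly(A) tails and sequenced in paired ends. Hypoxia lasted 48 h in the study's protein and apoptosis assays, and the time was not restated for the transcriptome. All 6 libraries came from 1 line with no genetic change between groups, and no source says whether the replicates were separate cultures, so the p-values measure the spread between these libraries, which may be technical.

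RNA polymerase I transcribes the ribosomal DNA repeats in the nucleolus into the precursor of the large ribosomal RNAs. Its largest subunits form the catalytic centre, smaller subunits hold it together or aid initiation and elongation, and a set of dedicated factors brings it to the promoter: Ubtf binds and opens the repeats, the selectivity factor SL1 (Tbp with the Taf1 proteins) recognizes the core promoter, and Rrn3 joins the polymerase to SL1. The pathway is known for following growth signals and for sensing loss of nutrients or oxygen. The rRNA precursor itself lacks a poly(A) tail and was not analysed here.

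The libraries held 5.75 to 6.72 gigabases of aligned sequence, read from the most frequent ratio of the deposited coverage to FPKM. Of the loci assembled in a library with more than 1 FPKM, 30.3 to 32.2% gave that ratio. Replicates of a group correlated more closely (Pearson r 0.988 to 0.989 across genes, which are not independent replicates) than libraries of different groups (0.951 to 0.953). The testis label was checked against markers. None of 17 germ cell markers reached 1 TPM in any library, and their summed level was 0.341 to 0.922 TPM in hypoxia against 1.06 to 1.42 TPM in normoxia; 7 of them, Sycp1, Mael, Hormad1, Tex101, Pgk2, Prm2 and Tnp1, were listed at 0 throughout. Of 7 fibroblast or mesenchymal markers, 6 reached 1 TPM, with a summed level of 6852 to 7067 TPM in hypoxia and 3300 to 4259 TPM in normoxia (Thy1 was listed at 0). The higher sum in hypoxia came from Vim (mean 4053 TPM in hypoxia, 1601 TPM in normoxia) and Col1a1 (1720 and 1161 TPM). Means of Col1a2 (1138 and 1123 TPM) and Acta2 (20.2 and 21.2 TPM) were close. Those of Pdgfrb (1.45 and 6.62 TPM) and Col3a1 (0.908 and 1.34 TPM) were lower in hypoxia. Of 7 Sertoli cell markers, Gata4 (27.0 to 38.2 TPM in hypoxia, 31.4 to 44.5 TPM in normoxia) and Sox9 (13.0 to 13.8 TPM in hypoxia, 5.84 to 6.89 TPM in normoxia) reached 1 TPM, and the list summed to 41.0 to 53.1 TPM in hypoxia and 38.6 to 50.9 TPM in normoxia. Of 5 Leydig cell markers, Insl3 (6.04 to 9.10 TPM in hypoxia, 1.61 to 4.22 TPM in normoxia) and Star reached it, and the list summed to 7.14 to 10.5 TPM in hypoxia and 3.21 to 5.70 TPM in normoxia. Of 5 macrophage markers, Cd68 and Csf1r reached it, Ptprc, Adgre1 and Lyz2 were listed at 0, and the list summed to 10.5 to 11.5 TPM in hypoxia and 7.20 to 8.11 TPM in normoxia. Of 4 endothelial markers, Pecam1 reached it (at most 1.80 TPM), Cdh5 was listed at 0, and the list summed to 0.279 to 1.501 TPM in hypoxia and 0.896 to 2.10 TPM in normoxia. The part of these marker levels in the results below was not tested.

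Of the 10 genes, 7 fell in hypoxia and none rose (limma with Benjamini-Hochberg adjustment over 13749 genes, adjusted p below 0.05; at an unadjusted p below 0.05 the counts were also 7 and 0), and 3 did not pass the test. Among all tested genes 36.1% fell and 17.9% rose, so a fall was itself frequent in these libraries. The median log2 fold change of the 10 genes was -0.43, against -0.13 over all tested genes. In 7 of the 10, every hypoxic library lay below every normoxic one, which also held for 41.0% of all tested genes. The fall was marked in Polr1a, Polr1b, Polr1e and Ubtf and slight in Rrn3 and Taf1a. Scaling libraries by median ratios shifts the median of all genes to 0.00. Of the 7, only those 4 with the marked fall were then still called lower. Polr1c was then called higher (log2 fold change 0.36, limma adjusted p = 0.0351). Of the 13749 genes, 3622 fell and 3603 rose under that scaling. In bulk RNA, fewer cells expressing a gene and less of its mRNA per cell cannot be told apart.

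**Figure D1:**
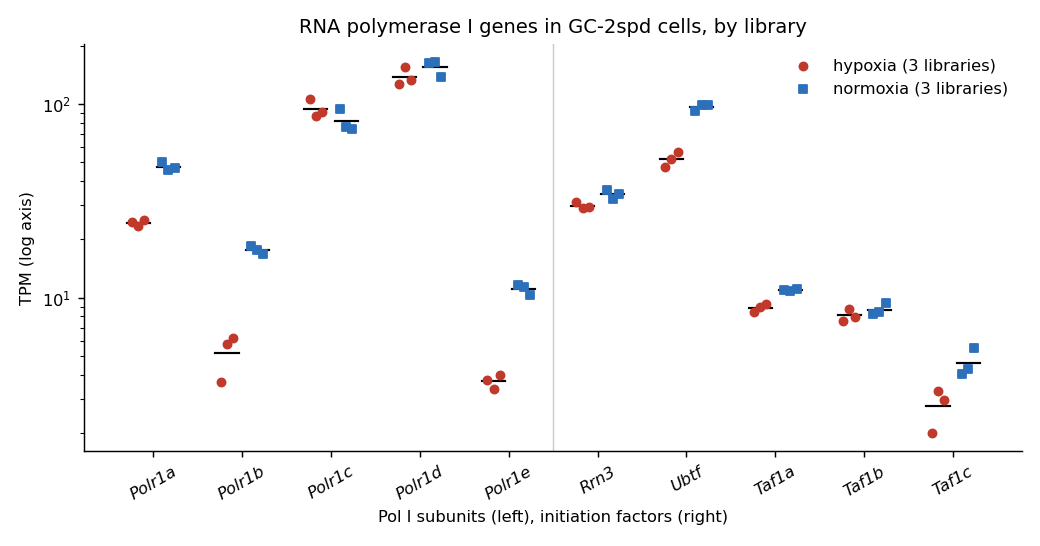
Level of each of the 10 genes in TPM (log axis) in each library, with the 3 hypoxic libraries as points to the left of the 3 normoxic ones and a bar at each group's mean. Polr1a, Polr1b, Polr1e and Ubtf show a wide gap between the groups, while the points of Polr1c, Polr1d and Taf1b overlap.

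The promoter windows of 5 genes are shown because these genes span the range of responses: Polr1a, Polr1b and Polr1e fell strongly, Rrn3 fell slightly, and Polr1c did not pass the test. Each window runs from 250 bases before to 50 bases after the start in RefSeq on GRCm38.p6, 5′ to 3′ on the gene's strand. Capitals mark ACGTG and GCGTG, read on either strand (CACGT and CACGC are their complements), the core letters bound by the hypoxia-inducible factors. A CACGTG, the E-box that Myc and its partner Max bind, holds ACGTG on both strands. The windows lie at chr6:71908803-71909102 (Polr1a, plus strand), chr2:129100746-129101045 (Polr1b, plus), chr4:45018359-45018658 (Polr1e, plus), chr16:13780449-13780748 (Rrn3, plus) and chr17:46247996-46248295 (Polr1c, minus).
Polr1a: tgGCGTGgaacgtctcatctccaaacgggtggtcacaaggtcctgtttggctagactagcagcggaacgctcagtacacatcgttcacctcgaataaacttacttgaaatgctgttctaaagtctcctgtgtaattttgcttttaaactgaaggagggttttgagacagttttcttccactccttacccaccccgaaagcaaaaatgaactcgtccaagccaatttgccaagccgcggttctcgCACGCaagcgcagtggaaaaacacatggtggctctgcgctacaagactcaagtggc
Polr1b: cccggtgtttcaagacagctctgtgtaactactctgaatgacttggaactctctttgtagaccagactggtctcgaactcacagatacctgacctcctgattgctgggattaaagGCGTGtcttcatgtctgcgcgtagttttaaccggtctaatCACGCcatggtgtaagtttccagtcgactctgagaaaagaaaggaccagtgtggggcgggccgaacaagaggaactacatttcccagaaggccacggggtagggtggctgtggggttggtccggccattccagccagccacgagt
Polr1e: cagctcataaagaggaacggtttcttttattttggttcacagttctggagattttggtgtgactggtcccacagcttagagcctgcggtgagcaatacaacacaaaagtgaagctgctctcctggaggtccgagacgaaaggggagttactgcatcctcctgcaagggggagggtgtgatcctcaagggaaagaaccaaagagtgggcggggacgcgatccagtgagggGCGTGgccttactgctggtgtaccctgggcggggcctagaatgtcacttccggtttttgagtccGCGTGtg
Rrn3: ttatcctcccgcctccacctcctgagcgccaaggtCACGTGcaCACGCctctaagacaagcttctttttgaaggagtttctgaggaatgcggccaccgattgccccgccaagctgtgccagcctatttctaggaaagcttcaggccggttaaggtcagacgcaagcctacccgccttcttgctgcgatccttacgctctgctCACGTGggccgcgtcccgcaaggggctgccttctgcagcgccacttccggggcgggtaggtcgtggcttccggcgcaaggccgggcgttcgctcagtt
Polr1c: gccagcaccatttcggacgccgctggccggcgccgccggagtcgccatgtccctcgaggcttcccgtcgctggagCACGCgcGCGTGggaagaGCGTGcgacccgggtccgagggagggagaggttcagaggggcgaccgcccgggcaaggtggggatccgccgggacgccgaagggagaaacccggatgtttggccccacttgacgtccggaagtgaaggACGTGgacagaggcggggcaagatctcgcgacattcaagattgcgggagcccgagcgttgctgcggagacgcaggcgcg

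All 10 genes had at least 1 window, and 7 had exactly 1, whereas Taf1a and Taf1c had 2 and Ubtf had 6. GCGTG occurred in a window of 8 of the 10 genes, all but Polr1d and Taf1b, against 35.2% of the 27025 genes with a window. ACGTG occurred in 4 (Polr1c, Rrn3, Taf1a and Ubtf), against 21.8% of genes. CACGTG occurred in Rrn3, which held it at bases 36 to 41 and 203 to 208 of its window, and in no other of the 10, against 8.09% of genes. CCGGAAGT, the letters bound by ETS family factors, occurred in 5 (Polr1c, Polr1e, Rrn3, Taf1a and Taf1c), against 4.31% of genes, and GGGCGG, the GC box, in 7, against 38.2%. These are matches of letters in one window, and genes with several windows had more chances of a match. The Polr1d window (chr5:147077096-147077395) lies inside the gene as placed in the files, so the bases before that start were not searched. The ACGTG of Ubtf lies in a window (chr11:102320813-102321112) that is outside the gene as placed in the files (end 102319742). The shares cover all genes with a window, expressed here or not, whereas the 10 genes all passed the filter of 1 TPM.

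Polr1a (ENSMUSG00000049553, chr6:71909053-71979356, plus strand, mm10 coordinates as in the files) encodes the largest subunit, which carries most of the active site. It measured 24.7, 23.4 and 25.1 TPM in hypoxia, against 50.2, 45.6 and 46.8 TPM in normoxia. The groups stood well apart and the replicates of each were close to each other. Polr1a fell in hypoxia with a log2 fold change of -0.93 (SE 0.06, limma adjusted p = 4.01e-05, lower in 3 of 3 libraries), on the log2(TPM + 1) scale, which understates changes of low genes. An antisense gene, Gm26628, shares 1.56% of the exon bases of Polr1a and stayed between 1.23 and 2.84 TPM. The reading of strand in the libraries is not stated, so reads from overlapping genes on opposite strands cannot be told apart.

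Polr1b (ENSMUSG00000027395, chr2:129100995-129126594, plus strand) encodes the second-largest subunit, which completes the catalytic centre with Polr1a. Its levels were 3.66, 5.79 and 6.16 TPM in hypoxia and 18.5, 17.7 and 16.7 TPM in normoxia. Hypoxia replicate 1 was the lowest library by the annotated gene. By the assembled locus it was the highest hypoxic library (7.96 TPM, against 6.09 and 6.27 TPM). Under both readings the highest hypoxic library lay far below the normoxic ones. Polr1b fell by 1.61 on the log2 scale (SE 0.17, limma adjusted p = 0.000285), the largest fall among the 10 genes, with a 95% interval of -2.01 to -1.22. With assembled loci in place of annotated genes it was -1.28, and Polr1e then had the larger fall (-1.33). Over all tested genes, 1.16% had a lower log2 fold change than Polr1b.

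Polr1e (ENSMUSG00000028318, chr4:45018583-45036565, plus strand) encodes PAF53, a subunit that pairs with Polr1g at the edge of the enzyme and aids initiation and elongation. Hypoxic libraries held 3.75, 3.40 and 3.97 TPM, and normoxic libraries 11.6, 11.4 and 10.3 TPM. The replicates were tight in both groups and the groups did not overlap. Polr1e fell in hypoxia with a log2 fold change of -1.36 (SE 0.09, limma adjusted p = 5.08e-05). Fbxo10, on the opposite strand, overlaps the span of Polr1e but shares 0 exon bases, and measured 20.9, 21.7 and 22.2 TPM in hypoxia against 18.1, 17.1 and 16.8 TPM in normoxia, above Polr1e in each library.

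Polr1c and Polr1d form the assembly platform of the enzyme, a pair that RNA polymerase III uses as well. Polr1c (ENSMUSG00000067148, chr17:46243920-46248054, minus strand) measured 105.7, 86.7 and 90.9 TPM in hypoxia, against 94.0, 76.1 and 73.9 TPM in normoxia. The groups overlapped, since normoxia replicate 1 lay above 2 of the hypoxic libraries. The log2 fold change was 0.22 (SE 0.11, 95% interval -0.05 to 0.48, limma adjusted p = 0.145). Without normoxia replicate 1 it was 0.32 and passed the test (limma adjusted p = 0.0324). It also passed under median-ratio scaling (0.36, limma adjusted p = 0.0351), and with assembled loci its sign turned (-0.17). In normoxia replicate 3 the assembled locus ran 76399 bases past the gene and measured 155.8 TPM, against 73.9 TPM for the annotated gene.

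Polr1d (ENSMUSG00000029642, chr5:147077050-147111361, plus strand) had the highest level of the 10 genes, with 127, 155 and 133 TPM in hypoxia and 163, 164 and 137 TPM in normoxia. Hypoxia replicate 2 and normoxia replicate 3 crossed, so the groups overlapped. Its log2 fold change was -0.16 (95% interval -0.40 to 0.08, limma adjusted p = 0.213). The intervals of Polr1c and Polr1d lay above those of Polr1a, Polr1b and Polr1e without overlap.

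Because the subunits are built into one enzyme, the levels of the others were set against Polr1a within each library. Polr1c stood at 3.87 ± 0.352 times Polr1a in hypoxia against 1.71 ± 0.151 times in normoxia (SD, n = 3 each), and Polr1d at 5.70 ± 0.828 times against 3.26 ± 0.331 times. Polr1b stood at 0.214 ± 0.0571 of Polr1a in hypoxia against 0.371 ± 0.0158 in normoxia, and Polr1e at 0.152 ± 0.00663 against 0.234 ± 0.0143. Each of these ratios separated the groups without overlap, with p = 0.1 in a two-sided exact permutation test, the smallest that 3 against 3 libraries allow. The ratios are made from the same levels as the fold changes above, so their separation is not further evidence. Ubtf to Polr1a did not separate them (2.13 ± 0.201 in hypoxia and 2.04 ± 0.17 in normoxia, exact permutation p = 0.5).

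Ubtf (ENSMUSG00000020923, chr11:102304560-102319742, minus strand) encodes the HMG-box protein that coats active ribosomal DNA repeats. It measured 47.0, 52.1 and 56.9 TPM in hypoxia, against 92.3, 98.5 and 98.5 TPM in normoxia. All hypoxic libraries lay far below the normoxic ones. Ubtf fell in hypoxia with a log2 fold change of -0.88 (SE 0.07, limma adjusted p = 0.000125).

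Rrn3 (ENSMUSG00000022682, chr16:13780699-13814840, plus strand) encodes TIF-IA, the factor that makes the polymerase competent to initiate and that growth-signalling kinases act on. Its levels were 31.1, 29.0 and 29.5 TPM in hypoxia and 35.9, 32.5 and 34.2 TPM in normoxia. The groups did not overlap, but the gap between them was narrow. Rrn3 fell by 0.19 on the log2 scale (SE 0.06, limma adjusted p = 0.0344). The call was lost without hypoxia replicate 2 (limma adjusted p = 0.0996), hypoxia replicate 3 (0.0777), normoxia replicate 1 (0.105) or normoxia replicate 3 (0.0831), and under median-ratio scaling (log2 fold change -0.05) and quantile scaling (-0.04). With the assembled loci of the files in place of annotated genes the sign turned (0.25, limma adjusted p = 0.559). In hypoxia replicate 3 alone the assembled locus differed from the annotated gene (74.7 TPM against 29.5 TPM). It ran 20611 bases past the gene there. Relative to Polr1a, Rrn3 stood at 1.23 ± 0.0411 in hypoxia against 0.720 ± 0.0102 in normoxia.

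The Taf1 proteins are the polymerase I-specific parts of SL1. Taf1a (ENSMUSG00000072258, chr1:183388981-183410198, plus strand) measured 8.40, 9.0 and 9.30 TPM in hypoxia, against 10.9, 10.9 and 11.1 TPM in normoxia, and the groups did not overlap. It fell by 0.28 on the log2 scale (SE 0.07, limma adjusted p = 0.0163). The call was lost without normoxia replicate 3 (limma adjusted p = 0.0525) and under median-ratio scaling (0.109), quantile scaling (0.409) and assembled loci (0.685).

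Taf1b (ENSMUSG00000059669, chr12:24498581-24558571, plus strand), whose product resembles the polymerase II factor TFIIB, measured 7.60, 8.75 and 7.94 TPM in hypoxia and 8.21, 8.43 and 9.42 TPM in normoxia. The groups overlapped, and the log2 fold change was -0.09 (95% interval -0.31 to 0.13, limma adjusted p = 0.434). It turned to 0.041 under median-ratio scaling.

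Taf1c (ENSMUSG00000031832, chr8:119597975-119605222, minus strand), the largest Taf1 protein, had the lowest level of the 10 genes, with 2.01, 3.30 and 2.95 TPM in hypoxia and 4.05, 4.29 and 5.52 TPM in normoxia. The groups did not overlap, but both were spread. Taf1c fell by 0.59 on the log2 scale (SE 0.18, limma adjusted p = 0.0263), and the call was lost without hypoxia replicate 1 (0.0601), normoxia replicate 2 (0.0516) or normoxia replicate 3 (0.0822), and under median-ratio scaling (0.0539), quantile scaling (0.0892), no filter on low values (0.0703) and assembled loci (0.392). The pseudogene Rps13-ps4 lies within its span on the same strand, shares 0 exon bases with it, and had a higher level in every library (8.04, 11.1 and 11.3 TPM in hypoxia, 14.9, 11.0 and 9.96 TPM in normoxia). Dnaaf1, on the opposite strand, overlaps the end of its span by 480 bases in the coordinates of the files and reached at most 0.331 TPM. By GENCODE M21 exons, Dnaaf1 shares 16.7% of the exon bases of Taf1c.

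**Figure D2:**
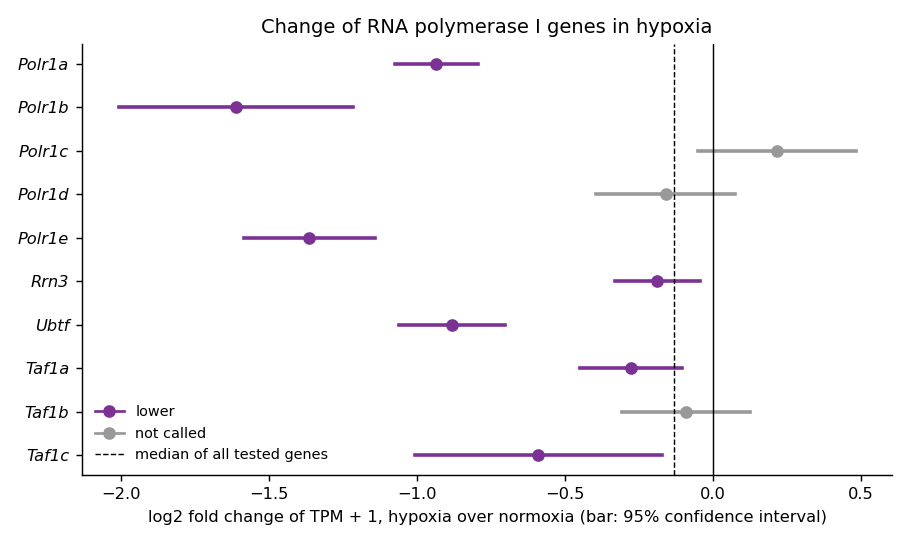
Log2 fold change of each of the 10 genes, hypoxia over normoxia, on the log2(TPM + 1) scale, with 95% intervals from limma and a line at the median of all tested genes (-0.13). Polr1b and Polr1e lie farthest to the left at -1.61 and -1.36, and Polr1c is the one gene to the right of 0, at 0.22.

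By mean TPM, which is per length, the order in hypoxia was Polr1d, Polr1c, Ubtf, Rrn3, Polr1a, Taf1a, Taf1b, Polr1b, Polr1e and Taf1c. In normoxia it was Polr1d, Ubtf, Polr1c, Polr1a, Rrn3, Polr1b, Polr1e, Taf1a, Taf1b and Taf1c. Neighbours whose ranges overlapped were Taf1a with Taf1b and Polr1b with Polr1e in hypoxia, and Ubtf with Polr1c and Polr1e with Taf1a in normoxia. Polr1a thus stood below Rrn3 in hypoxia and above it in normoxia, in all 3 libraries of each group. Summed over the 10 genes, the level was 361, 377 and 366 TPM in hypoxia and 489, 469 and 444 TPM in normoxia.

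The other subunits and SL1 parts, 5 further genes, were 3 lower, 1 higher and 1 not called. Over all tested genes the shares were 36.1% lower and 17.9% higher. Under median-ratio and under quantile scaling, 2 of the 5 were lower and 1 was higher. Cd3eap (Polr1g), the partner of Polr1e, measured 9.88, 10.2 and 10.0 TPM in hypoxia and 19.9, 17.6 and 19.2 TPM in normoxia, and fell by 0.85 on the log2 scale (limma adjusted p = 0.000116). Twistnb (Polr1f), a stalk subunit that in yeast contacts Rrn3, measured 11.2, 11.6 and 11.4 TPM in hypoxia against 18.5, 18.5 and 20.03 TPM in normoxia, and fell by 0.69 (limma adjusted p = 0.000186). Znrd1 (Polr1h), the zinc-ribbon subunit, did not pass the test (log2 fold change -0.20, limma adjusted p = 0.0829). Taf1d, a further SL1 part, rose, with 56.0, 62.0 and 59.0 TPM in hypoxia against 50.9, 47.6 and 50.1 TPM in normoxia (log2 fold change 0.25, limma adjusted p = 0.00932). Tbp, which all 3 nuclear polymerases use, measured 14.7, 14.5 and 13.8 TPM in hypoxia and 17.02, 24.7 and 19.0 TPM in normoxia, and fell by 0.45 (limma adjusted p = 0.0230), a call that was lost without any 1 of the hypoxic libraries, under median-ratio (0.1004) and quantile scaling (0.168) and with no filter on low values (0.0592). Tbp shares exon bases with Pdcd2, so reads may be split between them.

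Of 5 subunits shared by the 3 polymerases, 4 fell and none rose (limma; 5 and 0 at an unadjusted p below 0.05), with a median log2 fold change of -0.51. The largest falls by the test were in Polr2l (-0.96), Polr2f (-0.67) and Polr2e (-0.51). Of 11 subunits found only in polymerase III, 7 fell and none rose (7 and 0 at an unadjusted p below 0.05), with a median of -0.23. Under median-ratio and under quantile scaling 3 of them fell and 1 rose, and 5 or 6 fell with 1 library left out. Polr3e, a subunit that acts in initiation, measured 3.32, 3.14 and 3.71 TPM in hypoxia against 10.2, 9.74 and 10.3 TPM in normoxia, a log2 fold change of -1.34, and Polr3d (-0.44) fell as well. Of 8 subunits found only in polymerase II, 3 fell and none rose (3 and 1 at an unadjusted p below 0.05), with a median of -0.11; these were Polr2b (-0.29), Polr2m (-0.26) and Polr2j (-0.30). That share of falls is near the 36.1% of all tested genes, and the counts turned to 1 lower and 3 higher under median-ratio scaling and stood at 3 lower and 2 higher under quantile scaling. Polr2m and Polr2j lost the call under median-ratio scaling (limma adjusted p = 0.0596 and 0.113). Polr2j shares 15.9% of its exon bases with Lrwd1 and Polr2b 1.82% with Igfbp7, both on the opposite strand. Polr2m overlaps a gene without a matched symbol on its own strand, so reads of all 3 may be split. The differences between the 3 enzymes were not tested.

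**Figure D3:**
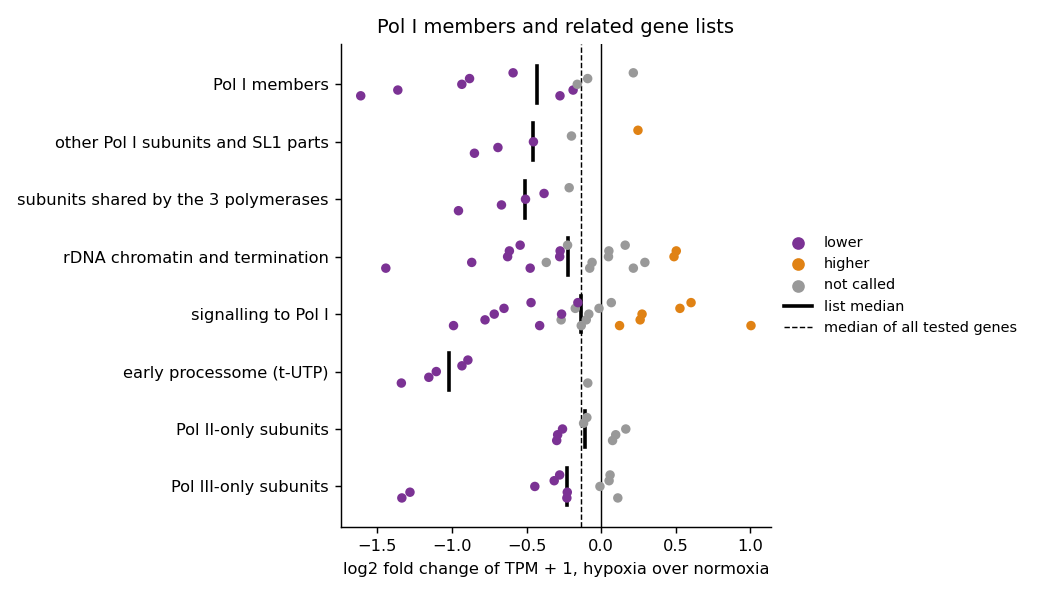
Log2 fold change of every gene of the 10 and of the related lists, hypoxia over normoxia, 1 point a gene, coloured by whether it passed the test, with a bar at each list's median and a line at the median of all tested genes (-0.13). The early processome list has the lowest median (-1.02), and the signalling list (-0.13) sits on the line.

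Proteins of the early processome bind the nascent precursor and link its transcription to its processing. Of 6 of their genes, 5 fell and none rose (limma, with 5 and 0 at an unadjusted p below 0.05), with a median log2 fold change of -1.02. Among all tested genes 36.1% fell and 17.9% rose. Heatr1 measured 6.89, 7.11 and 7.70 TPM in hypoxia against 20.7, 18.9 and 19.8 TPM in normoxia, with a log2 fold change of -1.34, Utp4 fell by 1.11 and Wdr43 by 0.89. Utp15 did not pass the test.

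Among 19 genes for ribosomal DNA chromatin, nucleolar factors and termination, 8 fell, 2 rose and 9 did not pass the test, a share of falls near the 36.1% of all tested genes. Under median-ratio scaling 6 fell and 6 rose, and under quantile scaling 7 fell and 4 rose. Ddx21, a nucleolar helicase, fell by 1.44, Top1, which relieves the supercoils of transcription, by 0.63, and Tcof1, which binds Ubtf and the polymerase, by 0.62. Top2a (0.50) and the histone demethylase Phf8 (0.49) rose. The terminator-binding factor Ttf1 did not pass the test.

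Of 21 genes that signal to the polymerase, 8 fell, 6 rose and 7 did not pass the test, a share of falls near the 36.1% of all tested genes. Under median-ratio scaling 5 fell and 6 rose. Myc, which activates Ubtf, SL1 and polymerase genes, measured 41.4, 41.3 and 44.2 TPM in hypoxia against 86.9, 85.0 and 82.8 TPM in normoxia, with a log2 fold change of -0.99 (limma adjusted p = 1.61e-05). Trp53, which represses the polymerase through SL1, fell by 0.72 and had the highest level of the list. It measured 2001.1, 1928.6 and 1990.5 TPM in hypoxia against 3270.7, 3136.8 and 3324.6 TPM in normoxia. These are RNA levels, and the activity of the protein was not measured. Ccnh, a cyclin of the TFIIH kinase, fell by 0.47. Vhl, which marks the hypoxia-inducible factors for degradation, measured 65.6, 60.6 and 68.6 TPM in hypoxia against 33.6, 29.1 and 33.0 TPM in normoxia, a log2 fold change of 1.00. Rb1, which binds Ubtf, rose by 0.60, and Prkaa2, a catalytic subunit of the energy-sensing kinase AMPK, by 0.53. Prkaa2 measured 6.31, 7.01 and 6.72 TPM in hypoxia against 4.46, 3.91 and 4.61 TPM in normoxia. The other catalytic subunit, Prkaa1, stood higher and fell by 0.27 (limma adjusted p = 0.00581). It measured 52.1, 55.8 and 56.2 TPM in hypoxia against 68.8, 63.5 and 65.4 TPM in normoxia.

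**Figure D4:**
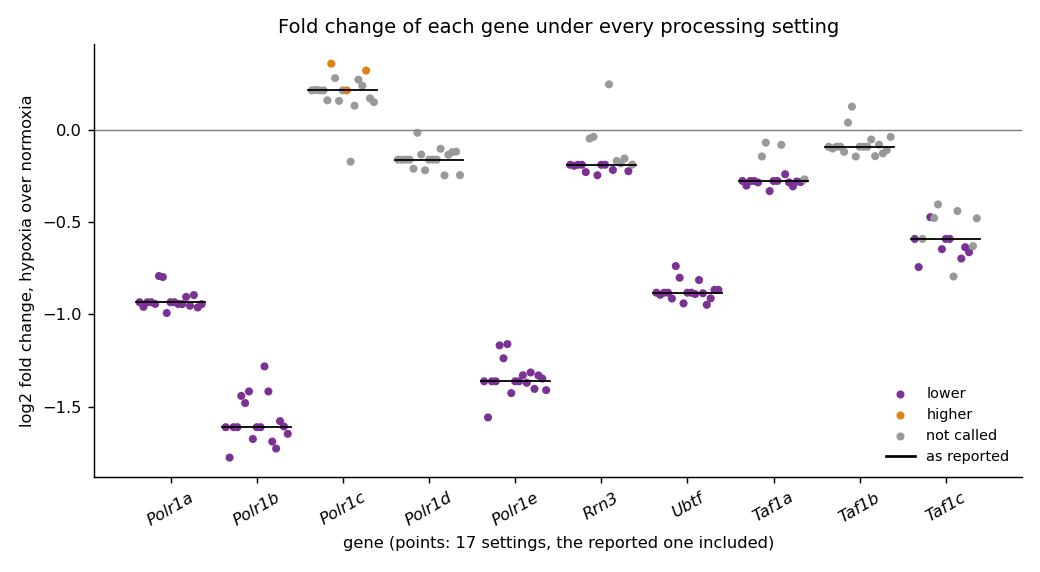
Log2 fold change of each of the 10 genes under the main setting and under 16 alternatives of scaling, filter, pseudocount, unit, assembled loci, replicate block and libraries left out, 1 point a setting, coloured by whether the gene passed the test, with a bar at the reported value (Taf1c has 15 alternatives, being removed by the filter of 5 TPM). Polr1a, Polr1b, Polr1e and Ubtf are called lower under all 16, and Polr1d and Taf1b under none.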

How the data were processed

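Poly(A)-selected RNA in 6 GC-2spd libraries (3 hypoxic, 3 normoxic, grouped by the treatment label) was analysed. Per the submitters' processing notes and the study's methods, the authors trimmed reads with cutadapt, aligned them to mm10 with HISAT2 and quantified them with StringTie; versions, annotation release and strand setting are not given in the sources used here. The deposited tables give average coverage (a signal), FPKM and TPM per gene, assembled loci included. The deposited TPM column holds each library's reads in 2 sets of rows (assembled loci, and annotated genes summing to 948284 to 981418), so the column as a whole was classed as a signal. No counts are given, so edgeR, which the study names, was not run, and no counting interval can be given for any value.

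Of 43432 gene IDs, 42462 matched GENCODE M21 symbols and 970 kept their ID; TPM was summed for 20 repeated symbols, leaving 43412 genes. Genes with a mean of at least 1 TPM (13749) were tested on log2(TPM + 1) with limma 3.58.1 in R 4.3.3 (empirical Bayes with a trend, 2-sided), hypoxia over normoxia, with Benjamini-Hochberg adjustment over all tested genes and a threshold of 0.05. The code was tested on simulated data. Fold changes are relative to other transcripts. FPKM as deposited by the authors served as an alternative, with others of scaling, filter, pseudocount (0.1), locus, block and left-out libraries. The members and gene lists were chosen with earlier results of these data known. Named were all 10 members, the other Pol I subunits and SL1 parts, genes overlapping a member, and up to 3 called genes per direction with the smallest adjusted p from each list; 1 gene that this rule names is not reported here. Prkaa1 was named beyond this rule, beside Prkaa2. Promoters are RefSeq windows on GRCm38.p6.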

Additional observations from a re-analysis of the deposited data

How the results depend on the processing

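The 10 genes were recomputed under 16 alternatives, giving 159 values, of which 135 kept their direction and side of the threshold, 17 lost a call, 3 gained one and 4 changed sign. The sign changes were Taf1b under median-ratio (0.041) and quantile scaling (0.13), and Polr1c (-0.17) and Rrn3 (0.25) with assembled loci in place of annotated genes. Of the 10, 4 were lower under median-ratio scaling, quantile scaling and assembled loci, and 1 was higher under median-ratio scaling. Their median was -0.28 with a filter of 5 TPM, -0.31 under median-ratio and -0.27 under quantile scaling. Leaving out 1 library gave 4 to 6 lower (4 without normoxia replicate 3), 0 to 1 higher (1 without normoxia replicate 1) and medians of -0.49 to -0.34. Of the related lists, 38 genes fell and 9 rose; 26 fell and 17 rose under median-ratio scaling, 32 fell and 13 rose under quantile scaling, and 33 to 38 fell and 8 to 9 rose with 1 library left out. Over all tested genes, 4967 fell and 2463 rose, against 3622 and 3603 under median-ratio scaling and 3639 and 3575 under quantile scaling, which move the median of all genes to 0.00. The causes of these differences were not tested.

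Same-numbered libraries hardly deviated together (correlations of 0.0259, 0.0333 and 0.0109). Hypoxia replicates 1 and 2 each correlated best with their own number, and hypoxia replicate 3 with normoxia replicate 1 (0.0256). All these correlations were weak, so the numbers were not taken to pair the libraries. With the replicate block, 7 of the 10 genes were lower and 1 was higher (Polr1c, limma adjusted p = 0.0239), and 4674 genes fell and 2281 rose.

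With 3 libraries a group from 1 line, precision was limited, and the number of reads behind a value is unknown.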

Other observations

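The deposited tables also hold assembled loci beside the annotated genes. In hypoxia replicate 1 the assembled locus over Polr1b measured 7.96 TPM, against 3.66 TPM for the annotated gene. Other loci ran past the gene: by 76399 bases over Polr1c in normoxia replicate 3, by 35996 bases over Taf1c in normoxia replicate 3 and by 20611 bases over Rrn3 in hypoxia replicate 3.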
